A study of Mus musculus with 12 samples.

Results

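The 10 chemokine genes described here are Ccl2, Ccl5, Ccl7, Ccl20, Cxcl1, Cxcl2, Cxcl10, Cxcl16, Cx3cl1 and Ppbp. They were taken by gene symbol from a deposited expression table of 48034 genes and measured by RNA sequencing in 12 libraries. The libraries come from subclone 53a of IMCD3, a line of epithelial cells taken from the collecting duct of the mouse inner medulla. As known of the study, adding mifepristone to this subclone induces a dominant-negative form of a transcription factor found in renal tubules. The 4 groups hold 3 libraries each (A, B and C). They are mifepristone plus 100 mM NaCl, mifepristone without added NaCl, vehicle plus 100 mM NaCl, and vehicle without added NaCl. All libraries come from 1 subclone grown in low glucose DMEM with serum, and mifepristone is also a ligand of steroid hormone receptors. No line without the mutant received the drug here, so effects of the drug and of the mutant cannot be told apart. The sources used here do not give the dose or duration of mifepristone or the time in NaCl, nor whether libraries A, B and C were separate cultures. The p-values below therefore rest on differences among the 3 libraries of a group, and these may be technical.

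Chemokines are small secreted proteins that guide white blood cells along a concentration gradient, and they are named for the spacing of their first cysteines (CC, CXC and CX3C). Tubule cells of an injured or inflamed kidney are a known source of several of them, and many of their genes are targets of the transcription factor NF-kB. CCL2 and CCL7 bind CCR2 and draw monocytes. CXCL1, CXCL2 and the product of Ppbp (CXCL7) bind CXCR2 and draw neutrophils. CCL20 binds CCR6 and CXCL10 binds CXCR3, receptors carried by lymphocytes. CXCL16 and CX3CL1 differ from the rest in being made as membrane proteins with a chemokine head on a stalk, from which proteases of the ADAM family release them.

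The 3 neutrophil attractants lie in the same cluster of chromosome 5. Their promoters are shown because Cxcl1 and Cxcl2 share a stretch that Ppbp lacks. Whether this stretch has a part in their expression was not tested. Each line gives the 120 bases from 170 to 51 bases before the RefSeq gene start, 5′ to 3′ on the plus strand, on build GRCm38.p6. Capitals mark the longest stretch that any pair of the compared promoters has in common.
Cxcl1 (chr5:90891075-90891194): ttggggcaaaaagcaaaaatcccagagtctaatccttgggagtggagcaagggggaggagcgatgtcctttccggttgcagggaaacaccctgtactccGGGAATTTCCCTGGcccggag
Cxcl2 (chr5:90903729-90903848): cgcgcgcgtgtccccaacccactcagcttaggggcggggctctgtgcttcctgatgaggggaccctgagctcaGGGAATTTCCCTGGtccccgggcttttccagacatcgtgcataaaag
Ppbp (chr5:90768348-90768467): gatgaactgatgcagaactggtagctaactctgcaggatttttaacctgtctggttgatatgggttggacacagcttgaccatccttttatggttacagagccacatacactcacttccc

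RefSeq promoters were matched by symbol for 6 of the 10 genes, namely these 3, Cxcl10, Ccl20 and Cx3cl1. Over the 250 bases before the start, read on both strands, the pair of Cxcl1 and Cxcl2 shared 14 bases, and no other pair of the 6 shared more than 11. Of 32851 mouse promoters of this length, 2 held the 14 bases, those of Cxcl1 and Cxcl2. The stretch was taken from these 2 promoters, so that they hold it was fixed in advance. A stretch of 11 bases within them, GGAATTTCCCT, was shared with the Cxcl10 promoter on the opposite strand and stood in 10 of all promoters. The longest stretch that Ppbp shared with Cxcl1 was 9 bases and with Cxcl2 10 bases. A shared stretch is a description of these letters and not a measured binding site.

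The reads recovered from the deposited values summed to between 41940955 and 49270776 per library, and within-group correlations of log2 values (0.989 to 0.997) exceeded those between groups (0.921 to 0.968). Read counts of within-group pairs differed by more than counting error, with a chi-square per degree of freedom of 2.14 to 43.7. Fitted library weights ran from 0.0276 (mifepristone B) to 55.8 (vehicle B), while the main fit gave all libraries equal weight. The 6 epithelial markers examined were all at 1 FPKM (fragments per kilobase of transcript and per 1e+06 reads) or more in at least 3 libraries. Of 8 collecting duct markers 3 were, while Aqp2, the vasopressin-regulated water channel, and Avpr2, the vasopressin receptor, were near 0 (at most 0.101 and 0.0229 FPKM in a library). Of 11 leukocyte markers only Cd68 and Cd14 reached 1 FPKM in at least 3 libraries. Tyrobp had 0 reads in every library, Ptprc, Adgre1, Itgam, Lyz2, Laptm5 and Cd3e stayed at or below 0.305 FPKM in each library, and Fcer1g reached 0.799. The summed leukocyte markers lay at 10.4 to 11.7 FPKM in mifepristone plus NaCl, 6.83 to 8.40 in mifepristone, 30.6 to 35.0 in vehicle plus NaCl and 11.7 to 13.1 in vehicle libraries. Cd14 made up most of the vehicle plus NaCl sum, with means of 4.75, 3.11, 29.2 and 8.51 FPKM in the groups in this order. Cd68 ran differently, with 5.36, 4.04, 2.84 and 3.11, and was highest with mifepristone plus NaCl. Of 6 fibroblast markers only Dcn passed 1 FPKM in at least 3 libraries, with means of 2.98 in mifepristone plus NaCl, 5.69 in mifepristone, 0.0735 in vehicle plus NaCl and 0.0780 in vehicle libraries. None of 6 endothelial markers did, and their sum lay at 0.528 to 0.653, 0.0501 to 0.0876, 0.231 to 0.303 and 0.0272 to 0.0425 FPKM, the order of groups that Ccl2 had. The part of these markers in the results was not tested. In bulk RNA, fewer cells making a transcript and less transcript per cell cannot be told apart.

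Summed over the 10 genes, chemokine transcripts reached 628 ± 32.3 FPKM in mifepristone plus NaCl, 111 ± 4.42 in mifepristone, 177 ± 8.52 in vehicle plus NaCl and 65.8 ± 3.05 in vehicle libraries (mean ± SD, n = 3 each). The sums of the 4 groups did not overlap. The make-up of the sum also differed. Ccl2 held 52.7% of it in mifepristone plus NaCl, 36.5% in mifepristone, 31.6% in vehicle plus NaCl and 11.3% in vehicle libraries. Cxcl10 and Cxcl16 held 4.10% and 3.70% of the sum in mifepristone plus NaCl libraries, while in vehicle libraries they led with 27.7% and 25.7%. Cx3cl1 came next after Ccl2 in mifepristone libraries, at 16.9% of the sum, against 7.56% in vehicle libraries. Ppbp held 15.4% of the sum with mifepristone plus NaCl and at most 7.55% in any library of the other groups.

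**Figure D1:**
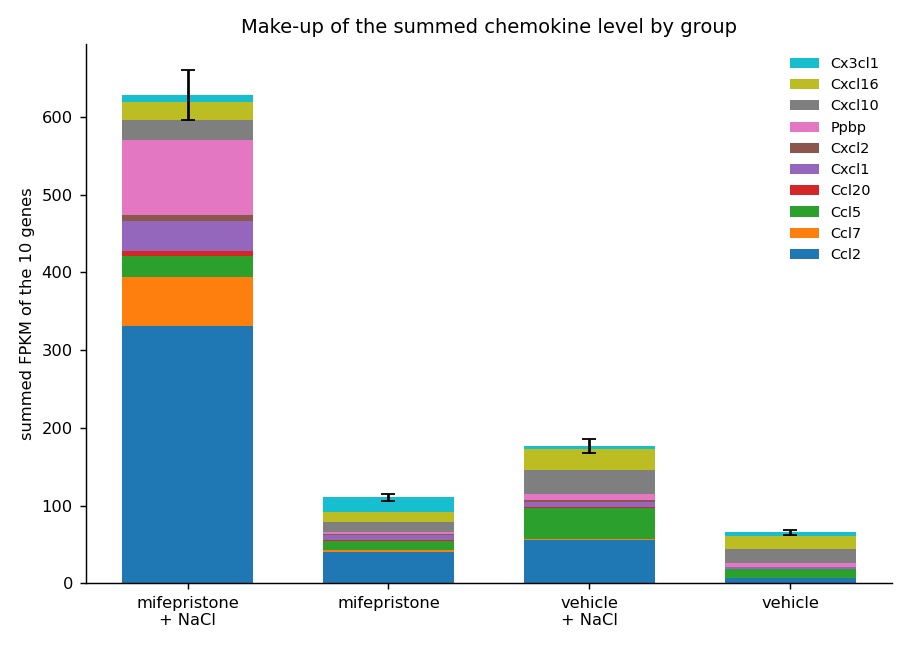
Stacked bars of the mean FPKM of each of the 10 chemokine genes in the 4 groups (3 libraries each), with the SD of the sum as an error bar on the total. The bar for mifepristone plus NaCl reaches 628 FPKM and is mostly Ccl2 and Ppbp, while the vehicle bar reaches 65.8 FPKM and is mostly Cxcl10 and Cxcl16.

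The order of the genes by mean FPKM shifted between groups. In mifepristone plus NaCl libraries it ran Ccl2 (331), Ppbp (96.8), Ccl7 (62.9), Cxcl1 (39.0), Ccl5 (27.4), Cxcl10 (25.8), Cxcl16 (23.2), Cx3cl1 (8.76), Cxcl2 (7.61) and Ccl20 (5.84), where Ccl5, Cxcl10 and Cxcl16 overlapped their neighbours. In vehicle libraries it ran Cxcl10 (18.3), Cxcl16 (16.9), Ccl5 (10.5), Ccl2 (7.46), Cx3cl1 (4.96), Ppbp (4.62), Cxcl1 (2.63), Ccl20 (0.303), Cxcl2 (0.187) and Ccl7 (0.0552), where Cxcl10 overlapped Cxcl16 and Cx3cl1 overlapped Ppbp. By mean FPKM, Ccl7 thus had rank 3 of the 10 with mifepristone plus NaCl and rank 10 in vehicle libraries, and Cxcl10 had ranks 6 and 1. Ccl2 had rank 1 in every group but vehicle.

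**Figure D2:**
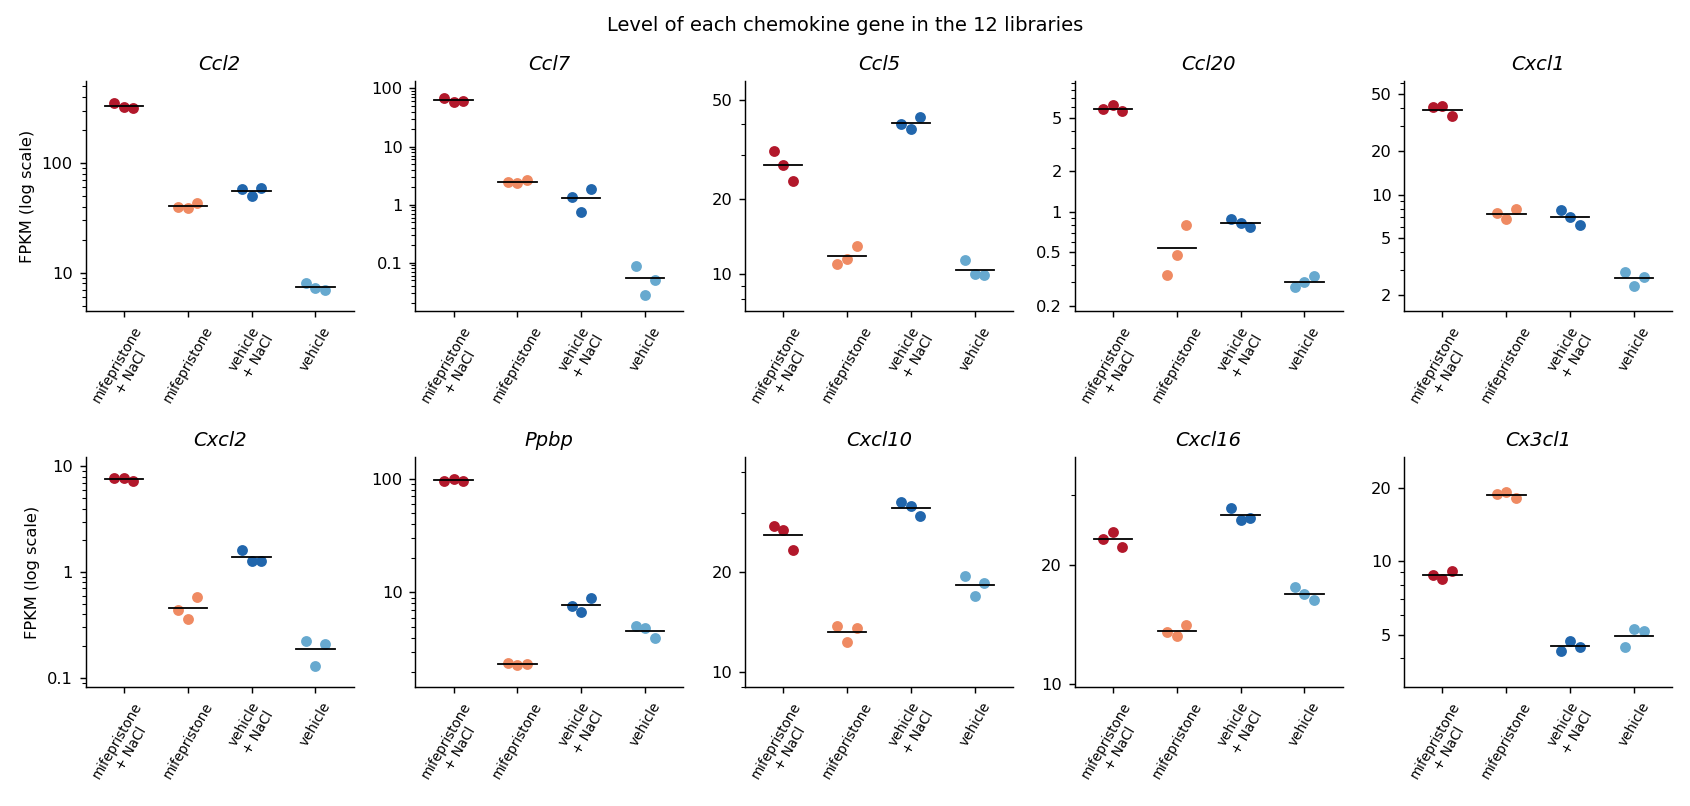
FPKM (log scale, with its own range for each gene) of the 10 chemokine genes, 1 point per library and a line at the mean of each group of 3. Ccl2, Ccl7, Ccl20, Cxcl1, Cxcl2 and Ppbp are highest in the 3 mifepristone plus NaCl libraries, Ccl5, Cxcl10 and Cxcl16 in the vehicle plus NaCl libraries, and Cx3cl1 in the mifepristone libraries.

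The monocyte attractants Ccl2 and Ccl7 lie side by side on chromosome 11 of GRCm38, Ccl2 (ENSMUSG00000035385) at chr11:82035571-82037453 and Ccl7 (ENSMUSG00000035373) at chr11:82045712-82047525, both on the plus strand. Ccl2 had 354, 321 and 318 FPKM in mifepristone plus NaCl libraries A to C, 39.5, 39.0 and 43.0 in mifepristone, 58.3, 49.9 and 59.4 in vehicle plus NaCl, and 8.09, 7.30 and 6.99 in vehicle libraries. All 4 groups stood apart, and mifepristone and NaCl each went with a higher level whether or not the other was present. Mifepristone against vehicle gave a log2 fold change of 2.56 with NaCl and 2.37 without (SE 0.077 each, limma adjusted p = 3.41e-10 and 7.17e-10). NaCl against none gave 3.02 in mifepristone cells and 2.82 in vehicle cells. The difference between the mifepristone effects, the interaction, was 0.19 (SE 0.11, adjusted p = 0.202) and missed the threshold of 0.05. Under quantile normalization it was 0.30 (adjusted p = 0.0361). Ccl2 was thus 5.89-fold higher with mifepristone in NaCl and 5.15-fold higher without it. By recovered reads per depth, the level in mifepristone plus NaCl was 44.2 times that in vehicle (95% counting interval 41.7 to 46.9).

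Ccl7 had 69.6, 58.0 and 61.0 FPKM in mifepristone plus NaCl libraries, 2.444, 2.404 and 2.644 in mifepristone, 1.37, 0.7497 and 1.82 in vehicle plus NaCl, and 0.0864, 0.0279 and 0.0513 in vehicle libraries. No groups overlapped, and the vehicle values rest on 3, 1 and 2 reads. On the log2(FPKM + 0.5) scale, where values this close to 0 are compressed, mifepristone against vehicle gave 5.17 with NaCl (SE 0.17, adjusted p = 7.92e-10) and 2.43 without (adjusted p = 3.92e-07). NaCl gave 4.40 in mifepristone cells and 1.66 in vehicle cells, where reads per depth gave ratios of 25.1 and 23.4. The interaction on this scale was 2.74 (SE 0.25, adjusted p = 1.62e-05). On recovered reads it was not called. There the mifepristone to vehicle ratio per depth was 48.8 with NaCl (95% counting interval 41.4 to 57.9) and 45.4 without (20.6 to 125), and limma's voom on the reads gave an interaction of 0.37 (SE 0.65, adjusted p = 0.693). The authors' deposited table lists 0.06 for it. The size and the call of the Ccl7 interaction thus depended on the scale (1.47 with a pseudocount of 0.1), while each simple rise of Ccl7 was called on both scales. Ccl7 reached 1 FPKM in no vehicle library, so its higher groups admitted it to the fit. The 22 alternative fits include a fit of every gene above 0 FPKM in at least 3 libraries. Over them the largest limma adjusted p was 3.45e-05 for mifepristone without NaCl and 0.000205 for NaCl in vehicle cells.

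The neutrophil attractants Cxcl1, Cxcl2 and Ppbp share a cluster on chromosome 5. Cxcl1 (ENSMUSG00000029380, chr5:90891241-90893115, plus strand) had 40.8, 41.1 and 35.2 FPKM in mifepristone plus NaCl libraries, 7.45, 6.74 and 7.92 in mifepristone, 7.86, 6.99 and 6.19 in vehicle plus NaCl, and 2.90, 2.31 and 2.68 in vehicle libraries. The mifepristone and the vehicle plus NaCl libraries overlapped, and the other groups stood apart from each other and from these. Mifepristone against vehicle gave a log2 fold change of 2.398 with NaCl and 1.331 without (SE 0.099 each, adjusted p = 3.81e-09 and 5.37e-07). NaCl gave 2.33 in mifepristone cells and 1.26 in vehicle cells. The interaction was 1.07 (SE 0.14, adjusted p = 0.000249), so mifepristone and NaCl together went with more Cxcl1 than the product of their separate folds.

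Cxcl2 (ENSMUSG00000058427, chr5:90903871-90905938, plus strand) had 7.76, 7.71 and 7.37 FPKM in mifepristone plus NaCl libraries, 0.436, 0.358 and 0.585 in mifepristone, 1.60, 1.27 and 1.28 in vehicle plus NaCl, and 0.223, 0.130 and 0.209 in vehicle libraries. No groups overlapped, but the mifepristone and vehicle groups rest on 136 and 53 reads in all. Mifepristone against vehicle gave 2.11 with NaCl (SE 0.098, adjusted p = 1.01e-08) and 0.48 without (adjusted p = 0.00147). Without NaCl, quantile normalization gave 0.25 and no call (adjusted p = 0.0838). NaCl gave 3.09 in mifepristone cells and 1.45 in vehicle cells on this compressed scale, and 4.05 and 2.86 by voom on reads. Cxcl2 reached 1 FPKM in the groups with NaCl only, and these high groups admitted it to the fit. The alternative fits that kept Cxcl2 include one of every gene above 0 FPKM in at least 3 libraries. Over them the largest limma adjusted p for NaCl was 2.66e-08 in mifepristone cells and 5.07e-06 in vehicle cells. The interaction was 1.63 (SE 0.14, adjusted p = 1.08e-05) and 1.19 by voom on reads (SE 0.29, adjusted p = 0.00914). By reads per depth the ratio of mifepristone to vehicle was 5.64 with NaCl (95% counting interval 5.06 to 6.30) and 2.45 without (1.77 to 3.44), and that of NaCl to none was 16.4 in mifepristone cells and 7.14 in vehicle cells. Of the 50-base stretches of Cxcl2 transcripts 5.84% also occur in Cxcl3 transcripts, a close relative. No such stretch of the other 9 genes occurs in an annotated transcript of another gene. Opposite strands and the rest of the genome were not searched.

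Ppbp (ENSMUSG00000029372, chr5:90768518-90770063, plus strand), known as a gene of platelets and their precursors, had 95.5, 99.1 and 95.7 FPKM in mifepristone plus NaCl libraries. It had 2.42, 2.31 and 2.33 FPKM in mifepristone, 7.65, 6.76 and 8.97 in vehicle plus NaCl, and 5.05, 4.83 and 3.99 in vehicle libraries. The groups did not overlap, and the order was unlike that of the other neutrophil attractants, since mifepristone without NaCl gave the lowest level. For Ppbp, mifepristone against vehicle gave a log2 fold change of 3.56 with NaCl (SE 0.094, adjusted p = 1.21e-10) and -0.84 without (adjusted p = 1.57e-05). Ppbp was thus 11.8-fold higher with mifepristone in the presence of NaCl and 1.79-fold lower in its absence. For the latter the authors' deposited table lists a log2 value of -0.95, with an adjusted p that is not below 0.05. NaCl gave 5.09 in mifepristone cells (34.1-fold) and 0.69 in vehicle cells (1.62-fold). The interaction of 4.40 (SE 0.13, adjusted p = 1.41e-08) was the largest by absolute size of the 14044 genes in this fit, and voom on reads gave 4.61. In the authors' deposited table Ppbp was the only one of the 10 genes with an adjusted p below 0.05 for the interaction (log2 4.61, adjusted p = 2.39e-110). Platelet markers other than Ppbp did not stand as high. Of 7, only Itga2b reached 1 FPKM in at least 3 libraries, and the sum of the 7 lay at 2.70 to 2.79 FPKM in mifepristone plus NaCl, 2.04 to 2.17 in mifepristone, 2.43 to 2.77 in vehicle plus NaCl and 2.31 to 2.53 in vehicle libraries.

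Ccl20 (ENSMUSG00000026166, chr1:83116766-83119167, plus strand), which draws CCR6-bearing lymphocytes and dendritic cells, passed the filter on low values through the mifepristone plus NaCl group only. It had 5.77, 6.18 and 5.58 FPKM there, 0.340, 0.476 and 0.795 in mifepristone, 0.882, 0.830 and 0.775 in vehicle plus NaCl, and 0.276, 0.299 and 0.333 in vehicle libraries. The mifepristone plus NaCl libraries stood far above the rest, while mifepristone C overlapped the vehicle plus NaCl group and mifepristone A lay just above the highest vehicle library. Since the filter admitted Ccl20 by the group where it is high, the comparisons with that group are given from the limma fit without this filter, which kept every gene above 0 FPKM in at least 3 libraries. There mifepristone with NaCl gave 2.25 against vehicle with NaCl (SE 0.13, adjusted p = 2.09e-07), NaCl gave 2.63 in mifepristone cells (adjusted p = 8.45e-08), and the interaction was 1.91 (SE 0.18, adjusted p = 6.1e-05). Reads per depth gave ratios of 7.22 for mifepristone with NaCl and 10.7 for NaCl in mifepristone cells. Without NaCl, mifepristone against vehicle gave 0.35 (adjusted p = 0.0333), and 0.0579 was the adjusted p without the filter. That call was also lost without mifepristone C (0.18, adjusted p = 0.0728) and without vehicle A, B or C (adjusted p = 0.0845, 0.0738 and 0.0512), and under quantile normalization it was 0.13 (adjusted p = 0.459). NaCl in vehicle cells gave 0.73, and 2.64 as a ratio of reads per depth.

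Ccl5 (ENSMUSG00000035042, chr11:83525778-83530518, minus strand), which draws T cells and monocytes, had 31.3, 27.4 and 23.6 FPKM in mifepristone plus NaCl libraries, 10.97, 11.57 and 12.94 in mifepristone, 40.0, 38.3 and 42.5 in vehicle plus NaCl, and 11.4, 10.1 and 9.94 in vehicle libraries. NaCl separated the groups under either treatment, and the mifepristone and vehicle libraries without NaCl overlapped. For Ccl5, mifepristone against vehicle gave -0.55 with NaCl (SE 0.096, adjusted p = 0.000465) and 0.17 without (adjusted p = 0.154). NaCl gave 1.17 in mifepristone cells and 1.90 in vehicle cells. The interaction was -0.72 (SE 0.14, adjusted p = 0.0024), so the rise of Ccl5 with NaCl was smaller in mifepristone cells.

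Cxcl10 (ENSMUSG00000034855, chr5:92346638-92348889, minus strand), an interferon-inducible attractant of T cells, had 27.4, 26.6 and 23.2 FPKM in mifepristone plus NaCl libraries, 13.7, 12.3 and 13.6 in mifepristone, 32.5, 31.5 and 29.5 in vehicle plus NaCl, and 19.3, 16.9 and 18.5 in vehicle libraries. The 4 groups did not overlap. Cxcl10 was 1.21-fold lower with mifepristone in NaCl (-0.27, SE 0.072, adjusted p = 0.00751) and 1.37-fold lower without NaCl (-0.45, adjusted p = 0.000245). NaCl gave 0.94 in mifepristone cells and 0.76 in vehicle cells. The interaction was 0.18 (SE 0.10, adjusted p = 0.197).

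Cxcl16 (ENSMUSG00000018920, chr11:70453983-70459984, minus strand), the membrane-bound ligand of CXCR6, followed the same order of groups. It had 23.2, 24.2 and 22.2 FPKM in mifepristone plus NaCl libraries, 13.5, 13.3 and 14.1 in mifepristone, 27.7, 26.0 and 26.2 in vehicle plus NaCl, and 17.5, 16.9 and 16.3 in vehicle libraries, and no groups overlapped. The log2 fold change of Cxcl16 with mifepristone against vehicle was -0.19 with NaCl (SE 0.044, adjusted p = 0.00276) and -0.30 without (adjusted p = 0.000133). NaCl gave 0.75 in mifepristone cells and 0.64 in vehicle cells, and the interaction was 0.10 (SE 0.062, adjusted p = 0.226). Cxcl16 overlaps Zmynd15 on the other strand, which had 0.925, 0.385, 1.52 and 0.546 FPKM on average in the groups as listed, and the sources used here do not say whether reads were assigned by strand. Ccl2 and Cxcl10 also overlap a gene on the other strand (Gm17268 and Art3), with at most 2 and 10 reads in a library.

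Cx3cl1 (ENSMUSG00000031778, chr8:94772009-94782427, plus strand), the membrane-bound ligand of CX3CR1, was the only gene of the 10 that was highest with mifepristone alone. It had 8.78, 8.41 and 9.09 FPKM in mifepristone plus NaCl libraries, 18.8, 19.1 and 18.1 in mifepristone, 4.26, 4.68 and 4.46 in vehicle plus NaCl, and 4.44, 5.27 and 5.16 in vehicle libraries. The mifepristone groups stood apart from each other and above both vehicle groups, which overlapped. The fibroblast marker Dcn was likewise highest in mifepristone and next in mifepristone plus NaCl, as given above, and its part was not tested. The other fibroblast markers, at most 0.257 FPKM in a library, did not share 1 order. Mean Lum was highest in mifepristone libraries (0.0237 FPKM), and mean Col1a1 and Pdgfra in vehicle libraries (0.206 and 0.0239). Col1a2 and Col3a1 were highest in mifepristone plus NaCl libraries (0.00240 and 0.000808). The log2 fold change of Cx3cl1 with mifepristone against vehicle was 0.90 with NaCl (SE 0.060, adjusted p = 2.12e-07) and 1.82 without (adjusted p = 7.57e-10). NaCl gave -1.05 in mifepristone cells (adjusted p = 7.23e-08) and -0.13 in vehicle cells (adjusted p = 0.0813). The interaction was -0.92 (SE 0.085, adjusted p = 1.96e-05). Without vehicle A the NaCl difference in vehicle cells was -0.20 and was called (adjusted p = 0.00623).

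Counted over the 10 genes, mifepristone with NaCl raised 7 and lowered 3 relative to vehicle with NaCl. In this comparison 58.7% of the 14044 tested genes were called, 26.8% higher and 31.9% lower. The libraries of the groups did not overlap for 10 of the 10, nor for 71.2% of all tested genes. The median log2 fold change of the 10 was 2.18. The 7 that rose were Ccl7, Ppbp, Ccl2, Cxcl1, Ccl20, Cxcl2 and Cx3cl1, and the 3 that fell were Ccl5, Cxcl10 and Cxcl16. Without NaCl, 6 rose and 3 fell, where 59.7% of all tested genes were called, 28.3% higher and 31.5% lower, and the median of the 10 was 0.41. Ccl2, Ccl7, Ccl20, Cxcl1, Cxcl2 and Cx3cl1 rose, Cxcl10, Cxcl16 and Ppbp fell, and Ccl5 was not called. The groups did not overlap for 9 of the 10, all but Ccl5, nor for 59.3% of all tested genes. In the authors' deposited table of mifepristone without NaCl, only Ccl2, Ccl7, Cxcl1 and Cx3cl1 of the 10 had an adjusted p below 0.05. With most tested genes called in each comparison, a call by itself did not set the chemokine genes apart. Leaving out Ccl20, which the filter admitted by its high group, 6 rose and 3 fell with NaCl and 5 rose and 3 fell without, with medians of 2.11 and 0.48, where the medians of all tested genes were -0.03 and -0.01. Ccl7 and Cxcl2, kept in these counts, also passed the filter only through groups where they were higher. The folds called with NaCl ran from 1.14 for Cxcl16 to 36.0 for Ccl7.

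**Figure D3:**
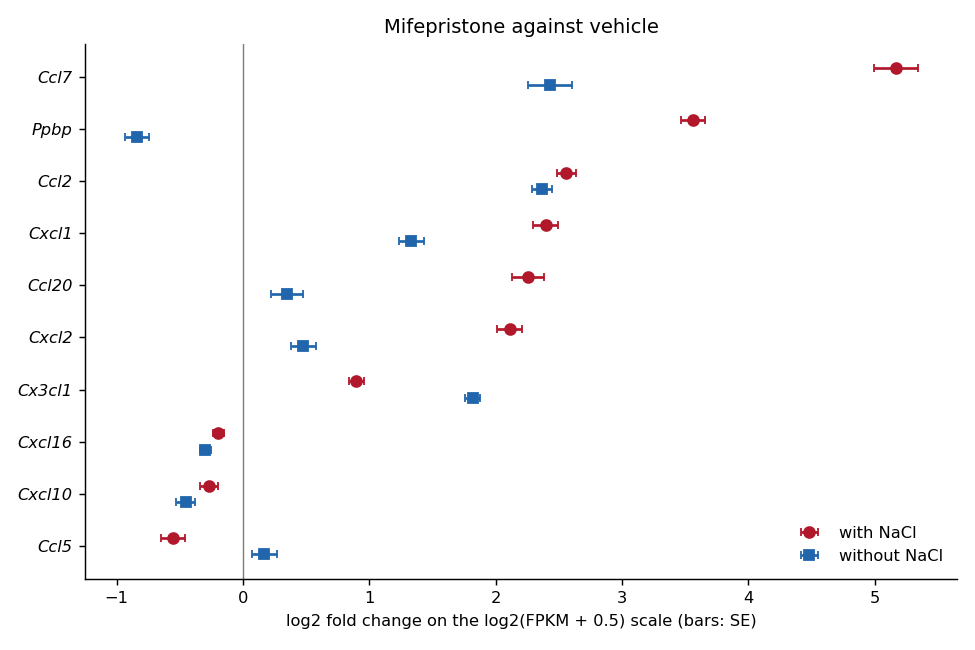
Log2 fold change of each chemokine gene, mifepristone over vehicle, with NaCl (red circles) and without (blue squares), as fitted by limma on log2(FPKM + 0.5) with bars of 1 SE. Ppbp lies at 3.56 with NaCl and -0.84 without, Ccl2 at 2.56 and 2.37, and Cx3cl1 is the only gene farther right without NaCl among those that rose.

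Relative to none, 100 mM NaCl raised 9 of the 10 genes in mifepristone cells and lowered 1, Cx3cl1. Of all tested genes 58.7% were called in this comparison, 24.5% higher and 34.2% lower, and the groups did not overlap for 10 of the 10 nor for 60.8% of all. In vehicle cells NaCl raised 9 and lowered 0, with 56.7% of all genes called, 25.2% higher and 31.5% lower. The gene not called there was Cx3cl1, also the only 1 of the 10 whose groups overlapped, while 67.9% of all tested genes did not overlap. The median log2 fold change of the 10 was 2.481 in mifepristone cells and 1.009 in vehicle cells. The medians of all tested genes were -0.06 and -0.02. In mifepristone cells the folds among the 9 that rose ran from 1.68 for Cxcl16 to 34.1 for Ppbp, and in vehicle cells from 1.56 for Cxcl16 to 7.07 for Ccl2. These are on the log2(FPKM + 0.5) scale, and by reads per depth in vehicle cells Ccl7 had the larger ratio, 23.4 (95% counting interval 10.5 to 64.8) against 7.28 for Ccl2. Without Ccl20, 8 rose and 1 fell in mifepristone cells, and 8 rose and 0 fell in vehicle cells, with medians of 2.33 and 1.26. Cxcl2, among the genes that rose in both, passed the filter only through the groups with NaCl. Ccl7, also among them, passed it through the groups other than vehicle. The comparisons share groups of libraries, so their counts are not independent of each other.

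**Figure D4:**
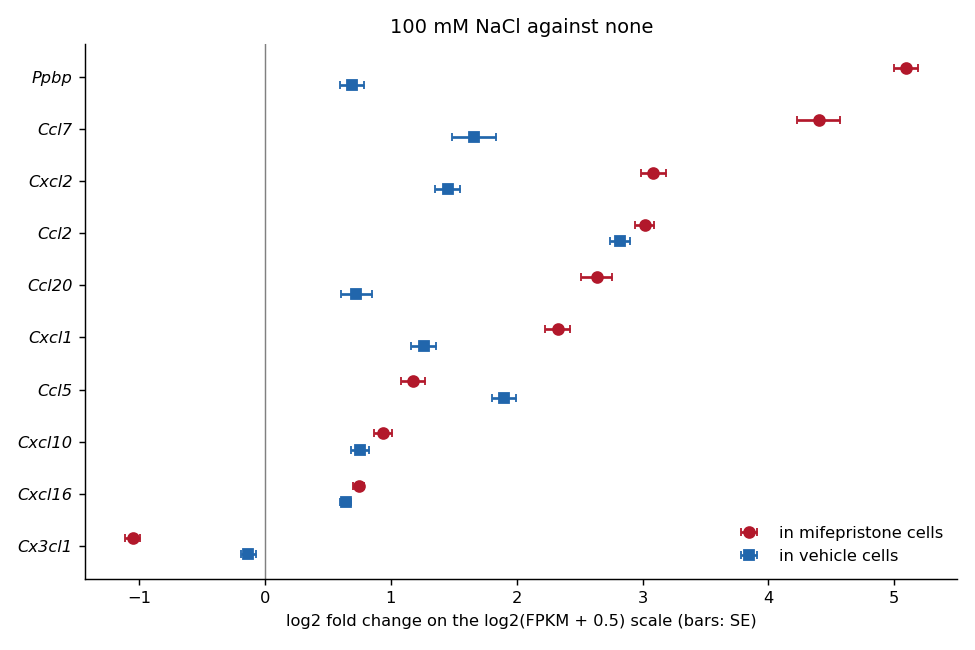
Log2 fold change of each chemokine gene, 100 mM NaCl over none, in mifepristone cells (red circles) and in vehicle cells (blue squares), as fitted by limma on log2(FPKM + 0.5) with bars of 1 SE. Ppbp lies at 5.09 and 0.69, Ccl5 is the only gene that rose more in vehicle cells (1.17 and 1.90), and Cx3cl1 lies below 0 in both.

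The interaction was called for 7 of the 10 genes, 5 higher and 2 lower, where 31.1% of all tested genes were called, 13.6% higher and 17.5% lower. Leaving out Ccl20, 4 of the other 9 were higher and 2 lower. Ppbp, Ccl7, Ccl20, Cxcl2 and Cxcl1 had a more positive mifepristone effect with NaCl than without, and Cx3cl1 and Ccl5 a less positive one. Ccl2, Cxcl10 and Cxcl16 missed the threshold, with interactions between 0.10 and 0.19, which does not show that their effects were equal. On the recovered reads 6 genes were called, Ccl7 being the one lost. The authors' deposited interaction table gives an adjusted p of 1 for Ccl2, Ccl5, Ccl7, Cxcl1, Cxcl2, Cxcl10, Cxcl16 and Cx3cl1 and 0.494 for Ccl20. The smallest absolute log2 interaction with an adjusted p below 1 in that table is 1.21, and the null that those p-values test is not given in the sources used here.

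The chromosome 5 cluster holds further CXC genes beside the 3 neutrophil attractants. From Cxcl5, Ppbp starts 9.2 kb away, Pf4 13.1 kb, Cxcl3 26.7 kb, Cxcl15 35.2 kb, Cxcl1 131.9 kb and Cxcl2 144.5 kb. The immediate neighbours of Ppbp stayed below 1 FPKM in every library. Cxcl5, another CXCR2 ligand, averaged 0.508 FPKM in mifepristone plus NaCl, 0.0411 in mifepristone, 0.230 in vehicle plus NaCl and 0.111 in vehicle libraries, the same order of group means as Ppbp. Pf4, the gene of the platelet protein CXCL4, averaged 0.429, 0.0195, 0.0716 and 0.0400 FPKM in these groups, on 43, 2, 7 and 4 reads. Cxcl3 had 163 reads in mifepristone plus NaCl, 2 in mifepristone, 2 in vehicle plus NaCl and 0 in vehicle libraries. Every gene of the cluster had its highest mean with mifepristone plus NaCl, but below the filter these differences were not tested. On chromosome 11, Ccl8, another monocyte attractant downstream of Ccl2 and Ccl7, averaged 7.62 FPKM in mifepristone plus NaCl, 0.353 in mifepristone, 4.16 in vehicle plus NaCl and 0.0844 in vehicle libraries. Ccl8 passed the filter on low values through the groups with NaCl only, and had 26 and 6 reads in mifepristone and vehicle libraries. Since its high groups admitted it, its NaCl differences are given as a description. The log2 fold changes were 3.27 in mifepristone cells and 2.98 in vehicle cells (SE 0.14).

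**Figure D5:**
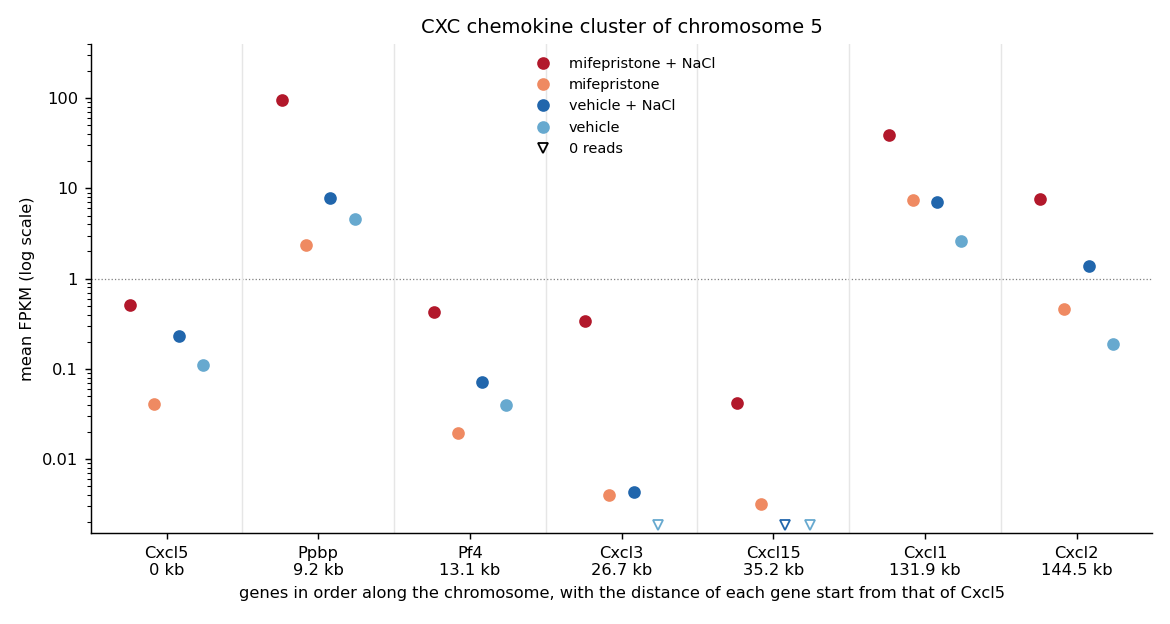
Mean FPKM (log scale, 3 libraries per group) of the 7 CXC genes of the chromosome 5 cluster, in order along the chromosome with the distance of each start from that of Cxcl5. Open triangles mark groups with 0 reads and the dotted line marks 1 FPKM. Ppbp, Cxcl1 and Cxcl2 exceed that line with mifepristone plus NaCl, at 96.8, 39.0 and 7.61 FPKM, while Cxcl5, Pf4, Cxcl3 and Cxcl15 stay below it in every group.

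Of the other 26 chemokine genes listed, 3 passed the filter on low values, Ccl8 (through the groups with NaCl only), Ccl25 and Ccl28. With mifepristone and NaCl against vehicle and NaCl, Ccl8 and Ccl25 rose (0.81 and 0.58) and Ccl28, a mucosal epithelial chemokine, fell (-0.88, SE 0.059, adjusted p = 2.28e-07). Without NaCl, Ccl8 and Ccl25 rose (0.53 and 0.51) and Ccl28 was not called.

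Genes of NF-kB signalling were all measured, 18 of 18. With NaCl, mifepristone raised 10 and lowered 2 of them (median log2 fold change 0.21), and without NaCl it raised 9 and lowered 1 (median 0.15). Over all tested genes 58.7% were called with NaCl and 59.7% without, with medians of -0.03 and -0.01, so being called did not set the list apart. By direction, 26.8% and 28.3% of all tested genes were higher and 31.9% and 31.5% lower. Nfkbia, the inhibitor that NF-kB itself induces, averaged 158.5 ± 6.61 FPKM in mifepristone plus NaCl, 91.1 ± 5.74 in mifepristone, 30.8 ± 2.21 in vehicle plus NaCl and 15.6 ± 0.833 in vehicle libraries (SD, n = 3 each). Nfkbia stood higher in mifepristone than in vehicle plus NaCl libraries, the reverse of Ccl2. Tnfaip3, a deubiquitinase that restrains the pathway, was higher with mifepristone in NaCl (0.68, SE 0.056, adjusted p = 1.2e-06), and Ikbkb, the kinase that frees NF-kB, was lower (-0.56, adjusted p = 1.51e-06). NaCl raised 13 and lowered 2 of the 18 in mifepristone cells and raised 14 and lowered 1 in vehicle cells. Of all tested genes 58.7% and 56.7% were called in these comparisons, 24.5% and 25.2% higher and 34.2% and 31.5% lower. The sizes were small beside those of the chemokine genes, with medians of 0.33 and 0.28.

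Of 27 inducing cytokines and receptors, 18 passed the filter. Mifepristone raised 11 and lowered 4 with NaCl, where 58.7% of all tested genes were called (26.8% higher), and raised 13 and lowered 3 without, where 59.7% were (28.3% higher). The medians were 0.27 and 0.33. Il1r1, the receptor of interleukin 1, averaged 35.1 ± 0.471 FPKM in mifepristone plus NaCl and 3.52 ± 0.108 in vehicle plus NaCl, and 16.3 ± 1.52 in mifepristone and 4.69 ± 0.0188 in vehicle libraries (SD, n = 3 each). Lta, a ligand of the tumour necrosis factor family, averaged 14.4 ± 0.809 FPKM in mifepristone plus NaCl and 2.30 ± 0.231 in vehicle plus NaCl, and 12.3 ± 0.844 in mifepristone and 2.12 ± 0.0900 in vehicle libraries. NaCl raised 6 and lowered 10 of the 18 in mifepristone cells and raised 5 and lowered 9 in vehicle cells. Of all tested genes 58.7% and 56.7% were called there, 24.5% and 25.2% higher and 34.2% and 31.5% lower. Tlr2, a receptor for bacterial lipoproteins, rose with NaCl in mifepristone and vehicle cells (1.11 and 1.06, SE 0.046 each), and Tnfrsf1b, a receptor of tumour necrosis factor, fell with NaCl in mifepristone and vehicle cells (-1.88 and -1.09, SE 0.047 each).

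All 10 listed genes of chemokine shedding and mRNA decay were measured. Adam17, the protease that sheds CX3CL1 on stimulation, was lower with mifepristone both with NaCl (-0.50, SE 0.041, adjusted p = 9.89e-07) and without (-0.48, adjusted p = 1.58e-06). Zfp36l2, which promotes decay of transcripts with AU-rich elements, was also lower (-0.36 with NaCl and -0.36 without, SE 0.038). Its relative Zfp36l1 went the other way, higher with mifepristone with NaCl (0.67, SE 0.061, adjusted p = 2.95e-06) and without (0.28, adjusted p = 0.00248). Zc3h12a, an RNase that degrades inflammatory transcripts, was higher with mifepristone both with NaCl (0.57, SE 0.078, adjusted p = 7.24e-05) and without (0.58, adjusted p = 6.37e-05). Over the list, mifepristone raised 3 and lowered 7 with NaCl and raised 6 and lowered 3 without (medians -0.14 and 0.15 for the list). Of all tested genes 58.7% and 59.7% were called there, 26.8% and 28.3% higher and 31.9% and 31.5% lower. The calls with NaCl numbered 6 in place of 10 when vehicle plus NaCl B or C, or mifepristone plus NaCl B, was left out.

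The deposited tables mark whether a gene has a nearby ChIP peak of the study. Cx3cl1, Cxcl1, Cxcl2, Cxcl10, Ccl5 and Ccl20 carried the mark, 60% of the 10, against 28.4% of the 14044 tested genes. Ccl2, Ccl7, Cxcl16 and Ppbp did not. The marked genes include 4 that rose with mifepristone without NaCl, 1 that fell and 1 not called, and the unmarked genes include 2 that rose and 2 that fell. Of all tested genes, marked or not, 28.3% were called higher and 31.5% lower in this comparison. Ccl20 and Cxcl2, both marked, lost this call in 8 and 1 of the alternatives. Whether the mark goes with a direction was not tested. The 2 adjacent genes Ccl2 and Ccl7 were both unmarked, and the neighbours Cxcl1 and Cxcl2 were both marked. The mark does not say whether neighbours share a peak, so the genes may not count separately.

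The genes most like each chemokine gene across the 12 libraries, by Pearson's r of log2(FPKM + 0.5) among 2083 genes whose group means spanned at least 1 on that scale, are given as a description. The 12 points share 4 groups, so r mostly reflects the 4 group means. Tlr2 (r = 0.999), Cpne8 and Bcar3 were most like Ccl2, and Arhgap40 (r = 0.995), Rcan1 and Tsc22d4 most like Ccl7. Cxcl1 was most like Aldh1a1 (r = 0.999), Slc5a5 and Rcan1, Cxcl2 most like Igll1 (r = 0.995), Ank and Ppm1d, and Ccl20 most like Oas1c (r = 0.992), Ptgs1 and Dapk2. Nearest to Ppbp were Fhl1 (r = 0.997), Itgb3 and F2rl1. Rhpn2 (r = 0.987), Mir133a-2 and Fam20c were nearest to Ccl5, Anxa9 (r = 0.991), Akr1b10 and Proser2 to Cxcl10, Proser2 (r = 0.993), Tmem120b and Gal3st1 to Cxcl16, and Eml4 (r = 0.996), Coro2b and Ptgfrn to Cx3cl1. Likeness on the log2 scale is of shape and not of size. The group means of Tlr2 spanned 3.84 to 16.1 FPKM where those of Ccl2 spanned 7.46 to 331.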

How the data were processed

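Poly(A) RNA libraries (TruSeq kit) were made from the cells. The submitters' processing notes name the build GRCm38 (mm10) and the tools DESeq2 1.12.3, SAMtools 1.0, STAR 2.4.2a and Trimmomatic 0.32 without their roles. The sources used here do not give the counting program, annotation, read length or use of strand. The authors deposited FPKM per gene and library, and comparison tables that, per the file headers, hold a mean signal (normalized count), adjusted p-values and log2 fold changes. Columns named for the mutant were taken as the mifepristone libraries from their letter, their NaCl part and what is known of the study. In the authors' mifepristone table no absolute log2 value under 1.07 has an adjusted p below 1, and the null those p-values test is not given in the sources used here.

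Each FPKM was scaled by its gene's deposited mean signal over its mean FPKM and divided by a step found for the library, which made 100% of values whole reads within 0.05. A limit of 3 reads, which a count of 0 allows, is a floor of 0.0609 to 0.0715 CPM. Counting intervals (95%, exact) cover counting error only.

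limma 3.58.1 (R 4.3.3, trended and robust empirical Bayes) was run on log2(FPKM + 0.5) over 4 group means, with 8 residual degrees of freedom, for the 14044 genes that reached 1 FPKM in 3 or more libraries. This scale understates fold changes near 0. P-values were adjusted by Benjamini-Hochberg over all genes tested, with calls under 0.05. All 10 chemokine genes passed the filter, Ccl20 through 1 group only and Cxcl2 through the groups with NaCl only. Ccl7 passed it through the groups other than vehicle. Alternatives were other pseudocounts, filters and scalings, a replicate block, library weights, voom on recovered reads, and left-out libraries. The sources used here do not say that library letters pair the samples, and the main fit did not pair them. The fit was also run on simulated reads with known changes in some genes and the same spread set for all genes. That setting is simpler than these data, so it does not measure how often calls here are wrong.

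The members, lists and tests were chosen with earlier results of these data known. Named genes are the 10 members, up to 4 tested genes per list and mifepristone comparison and up to 2 per NaCl comparison by smallest adjusted p, and the 3 most like each member. Some of these, and neighbours in the gene clusters, are described after their values were seen, and others only by counts. Coordinates are from GENCODE M21 (98.5% of identifiers matched) and promoters from RefSeq (GRCm38.p6), compared pair by pair for their longest common stretch, a comparison chosen after the sequences had been seen. Python 3.11.15, pandas 2.3.3, numpy 2.4.6, scipy 1.17.1 and matplotlib 3.10.9 were used.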

Additional observations from a re-analysis of the deposited data

Results flagged for a closer look

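The mifepristone effect on 7 of the 10 chemokine genes differed between cells with and without NaCl by limma's test of the interaction, on the log2(FPKM + 0.5) scale, where 31.1% of all tested genes were called. The effect with NaCl minus that without was 4.40 for Ppbp (SE 0.133, adjusted p = 1.41e-08), where the effect was positive with NaCl and negative without. It was 2.74 for Ccl7 (adjusted p = 1.62e-05), a value that rests on 6 reads in the 3 vehicle libraries and was 0.37 by voom on reads. It was 1.91 for Ccl20, 1.63 for Cxcl2 and 1.07 for Cxcl1, where the effects were positive with NaCl and without. Ccl20 passed the filter on low values through the mifepristone plus NaCl group only, and its interaction had an adjusted p of 6.1e-05 in the limma fit without that filter. The difference was -0.92 for Cx3cl1, also positive in both, and -0.72 for Ccl5, where mifepristone against vehicle was called with NaCl only.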

How the results depend on the processing

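Over 22 alternatives, 1076 of the results for single chemokine genes kept their direction and their side of the threshold, 10 lost the call, 4 gained one and 0 turned round. Calls among the 10 genes numbered 8 to 10 for mifepristone with NaCl (10 as reported), 7 to 9 without NaCl (9), 8 to 10 for NaCl in mifepristone cells (10), 7 to 10 in vehicle cells (9) and 5 to 8 for the interaction (7). The lowest counts came with a mean FPKM of at least 5, which leaves 8 of the genes, and for mifepristone without NaCl also with quantile normalization. Leaving out each replicate in turn gave 10, 8 to 9, 10, 9 to 10 and 7 calls in the same order.

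The calls lost were Ccl20 with mifepristone without NaCl in 8 alternatives, Cxcl2 there under quantile normalization, and the Ccl7 interaction with voom on reads. Those gained were Cx3cl1 with NaCl in vehicle cells in 3 alternatives and the Ccl2 interaction under quantile normalization. With the replicate block the calls numbered 10, 9, 10, 9 and 7, and it changed no count. Deviations from the group means correlated at -0.50 to 0.29 for same-lettered libraries of different groups and at -0.44 to 0.61 for other-lettered ones. With 3 libraries per group these ranges cannot settle whether a letter marks a shared culture or batch. Depth limits Ccl7, Cxcl2 and Ccl20, with 6, 53 and 59 reads in the vehicle group.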

Other observations

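The receptors of these chemokines were close to 0 in the same libraries. None of 23 chemokine receptor genes passed the filter on low values, and 5 had 0 reads in all 12 libraries. The highest was Ccr10, a receptor of CCL27 and CCL28, at 0.480 FPKM in 1 library. Cxcr6, the receptor of CXCL16, averaged 0.0808 FPKM in mifepristone plus NaCl, 0.0716 in mifepristone, 0.0924 in vehicle plus NaCl and 0.0307 in vehicle libraries, on 21, 19, 24 and 8 reads. Cx3cr1, the receptor of CX3CL1, had 4, 7, 0 and 1 reads in these groups, and Ccr2, the receptor of CCL2 and CCL7, had 0, 1, 0 and 0.

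Tnf, the cytokine gene that gives tumour necrosis factor, stayed below the filter but averaged 0.897 ± 0.103 FPKM in mifepristone plus NaCl, 0.683 ± 0.148 in mifepristone, 0.0490 ± 0.00734 in vehicle plus NaCl and 0.00909 ± 0.0157 in vehicle libraries (SD, n = 3 each). These means rest on 202, 160, 11 and 2 reads. Il6, an inflammatory cytokine gene, had 114, 25, 31 and 9 reads in the same groups. These differences were not tested.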
